A study of Mus musculus with 4 samples.

Results

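Interferon-stimulated genes and interferon receptor subunits were examined in large peritoneal macrophages (LPMs), which reside in the peritoneal cavity, of WT mice and of mice bred to lack RXRα in myeloid cells. RXRα, encoded by *Rxra*, is a nuclear receptor that binds DNA as a homodimer or with partner receptors. The members were a list of 45 genes chosen by name, and 45 of 45 had a value among the 18364 genes of the table. They comprised 33 genes of the type I interferon style, 8 guanylate-binding protein (GBP) and immunity-related GTPase (IRG) genes, and 4 receptor subunits. All animals were C57BL/6 mice of 8 weeks, and cells were sorted as F4/80+ MHCII NEG CD102+. The 2 WT libraries came, by the methods of the study, from *Rxra* fl/fl littermates without Cre, and the 2 libraries labelled Rxra-KO (RXRa-/- in the labels; called KO-labelled or Rxra-KO libraries after that label) from *LysM* Cre+ *Rxra* fl/fl animals, so the floxed alleles were carried by both groups. *LysM* Cre is driven from the lysozyme locus *Lyz2* and acts in myeloid cells at large, not in LPMs alone. The labels name no agent given to the animals. By its own account the study removed libraries that clustered away from their condition, and such libraries were not analysed here.

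Interferons are secreted proteins that warn cells of infection. Type I interferons bind a receptor made of IFNAR1 and IFNAR2, and the kinases TYK2 and JAK1 then activate a complex with STAT2 and IRF9 that binds the interferon-stimulated response element (ISRE). Interferon-γ binds IFNGR1 and IFNGR2, and through JAK1 and JAK2 it acts at the gamma-activated site (GAS) and induces the transcription factor IRF1. Antiviral genes such as the *Ifit*, *Oas* and *Mx* families are the classical products of the first route. GBP and IRG proteins, large GTPases that assemble on the vacuoles of intracellular bacteria and parasites, are known as strong products of the second, although most of them respond to both.

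The stretches upstream of the transcription start are shown for the motifs through which genes of this kind are known to respond. Each is 60 bases of RefSeq GRCm38.p6 sequence, written 5′ to 3′ on the strand of the gene, with every match to an ISRE core (GAAANNGAAA, or TTTCNNTTTC on the other strand) or a GAS core (TTCNNNGAA, which reads the same on both strands) in capitals. The 4 GTPase genes show 1 or more ISRE cores close to the start, *Igtp* with a GAS core beside it, *Isg15* and *Rsad2* are type I style genes with the same core, and *Isg20* and *Irf1* hold a GAS core and no ISRE core in these bases.
Gbp3 (chr3:142559980-142560039, plus strand): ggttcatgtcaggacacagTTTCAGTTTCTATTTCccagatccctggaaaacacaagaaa
Gbp2 (chr3:142620579-142620638, plus strand): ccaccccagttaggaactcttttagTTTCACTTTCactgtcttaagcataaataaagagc
Irgm1 (chr11:48871421-48871480, minus strand): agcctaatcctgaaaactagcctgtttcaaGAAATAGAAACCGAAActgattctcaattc
Igtp (chr11:58199496-58199555, plus strand): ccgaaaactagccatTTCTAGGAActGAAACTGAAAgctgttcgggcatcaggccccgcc
Isg15 (chr4:156200850-156200909, minus strand): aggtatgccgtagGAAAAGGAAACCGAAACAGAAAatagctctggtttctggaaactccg
Rsad2 (chr12:26456538-26456597, minus strand): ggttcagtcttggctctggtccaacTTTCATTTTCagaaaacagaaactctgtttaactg
Isg20 (chr7:78913325-78913384, plus strand): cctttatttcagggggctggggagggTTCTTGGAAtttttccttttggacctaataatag
Irf1 (chr11:53769898-53769957, plus strand): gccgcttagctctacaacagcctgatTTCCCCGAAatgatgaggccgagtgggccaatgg

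Over the 250 bases before the start, an ISRE core was found in 7 of 7 GTPase genes with a RefSeq window, in 9 of 23 type I style genes and in 0 of 4 receptor genes. Among all RefSeq genes with such a window, 3.46% held this core. A GAS core was found in 4 of the 7 GTPase genes, in 4 of the 23 type I style genes and in 1 receptor gene, *Ifnar2*, against 8.13% of all genes. A match shows only that these letters occur, and no match shows only that they do not occur in this window. No promoter was matched for *Iigp1* or for 10 type I style genes.

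Recovered reads were between 629030 and 1047021 per library, a low depth, and the 45 members took 0.289% to 0.409% of them. Values are given as normalised read counts, the deposited scale, which stands for reads plus a 0.5-read offset, scaled for library size. A single read was worth between 0.993 and 1.51 on this scale, so 11 of the 45 members, averaging under 10 reads, were measured from very few reads, and 7 averaged 100 or more. The targeted gene did not follow the labels: *Rxra* had 20 and 28 WT reads against 33 and 77 in the KO-labelled libraries (log2 fold change 0.99, adjusted p = 0.183 by limma). The table gives 1 value per gene, so reads from exons outside the deleted part could not be set apart, and those reads do not check the deletion. *Lyz2* was lower in the KO-labelled libraries, with a log2 fold change of -1.03 (adjusted p = 0.00163 by limma). The marker genes of LPMs were present in every library, but 6 of 8, among them *Gata6* and *Icam2*, were lower in the KO-labelled libraries. The monocyte markers *Ccr2* and *F13a1* were higher there, with log2 fold changes of 3.46 and 4.06. The summed normalised read count of the 5 monocyte markers was 79 to 376 in WT and 2285 to 2831 in Rxra-KO. Nearly all of each sum lay in *Ccr2* and *F13a1*. In any library *Plac8* had at most 2 reads and *Chil3* at most 5, and neither was called. *Ly6c2*, a defining monocyte gene, had at most 1 read in either Rxra-KO library. The 4 measured markers of plasmacytoid dendritic cells, a known source of type I interferon, summed to 33 to 50 in all libraries, and the 2 of NK cells, a source of interferon-γ, to 4.5 to 11.9. The 5 conventional dendritic cell markers summed to 44.7 and 43.9 in WT and 94.1 and 112 in Rxra-KO. Most of that rise lay in *Cd209a*, with 22.0 and 14.6 in WT against 65.5 and 80.0. It was the only call among them, at a log2 fold change of 1.95 (adjusted p = 0.000128 by limma). This call was lost in 3 of 15 alternatives, with log2 fold changes from 1.68 to 2.23. Of the 5 markers, 4 had log2 fold changes above 0 and 1, *Clec9a*, below, while *Xcr1* had 15.9 and 9.22 in WT against 12.8 and 13.4. Summed T cell markers were 70.0 to 105 in all libraries, and of the 5 measured, 3 had log2 fold changes above 0 and 2 below. *Cd2* was called higher, with 0 reads in both WT libraries against 11 and 6, at least 2.89-fold above a floor of 3 reads per library. *Lck* went the other way, with 7 and 11 WT reads against 2 and 0, and was not called (adjusted p = 0.132 by limma). The part of these shifts in the interferon genes was not tested.

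The 45 genes did not move as one. With all 4 libraries, 3 of them were lower in the KO-labelled libraries and 0 were higher, where a call needed an adjusted p under 0.05 from limma and a log2 fold change of 0.6 or more in size. The lower genes were *Gbp3*, *Iigp1* and *Isg20*. They were 6.67% of the members, against 2.29% of all genes called either way, 0.969% called lower and 1.32% called higher. That background was less well covered: 9514 of the 18364 genes averaged under 10 reads, against 11 of the 45 members. Among genes averaging at least 100 reads, 1 of 7 members was called, against 193 of 1405 in the whole table. In these bulk libraries, a lower value cannot tell fewer cells of a type from less RNA per cell. At an unadjusted p under 0.05 there were 6 members, or 13.3%, against 10.1% of all genes. The median log2 fold change of the members was -0.02, with 22 above 0 and 23 below, and that of all genes was 0.02. The 2 groups did not overlap for 14 members, or 31.1%, against 38.1% of all genes. Of these, 8 were higher in both KO-labelled libraries and 6 were lower, with 18.8% and 19.3% of all genes in the respective directions. The share of separated members was therefore no higher than the background, and the calls lay in a few genes. The labels do not say that the libraries came from separate animals, so p-values speak for these libraries only. In the fit, a gene's own spread had 2 degrees of freedom, and the spread taken from other genes 226.6. The p-values and intervals thus mostly reflect the spread of other genes, not that between the libraries of the gene itself. An exact permutation test of 2 against 2 libraries cannot give a p below 0.333, so single values were judged from the fit across all genes.

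The GBP and IRG GTPases held 2 of the 3 calls, and the log2 fold changes of all 8 were below 0 with all 4 libraries, with a median of -0.43. *Gbp3* and *Iigp1* were called lower, and the other 6, *Gbp2*, *Gbp5*, *Gbp7*, *Irgm1*, *Irgm2* and *Igtp*, were not. The summed normalised read count of the 8 genes was 958 and 1998 in WT and 760 and 938 in the KO-labelled libraries. WT replicate 2 stood far above the other 3 libraries, and WT replicate 1 was close to both Rxra-KO libraries.

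*Gbp3*, which encodes a guanylate-binding protein, had normalised read counts of 397 and 707 in WT and of 177 and 203 in the KO-labelled libraries. The groups did not overlap, and both WT libraries had more than either Rxra-KO library. The means were 552 ± 219 (SD, n = 2) and 190.0 ± 18.5 (SD, n = 2), and the log2 fold change was -1.48 ± 0.24 (SE, adjusted p = 4.16e-07 by limma). Without WT replicate 2 it was -1.06 and narrowly missed the threshold (adjusted p = 0.0516 by limma).

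*Iigp1* encodes an IRG protein that is loaded onto pathogen vacuoles. It had 22 and 92 reads in WT against 2 and 15 in the KO-labelled libraries, or normalised read counts of 34.1, 100.3, 3.76 and 15.4. The groups again did not overlap, and WT replicate 1 lay closer to Rxra-KO replicate 2 than to WT replicate 2. The log2 fold change of -2.75 ± 0.49 (SE, adjusted p = 7.94e-06 by limma) was the lowest among the members. It became -1.99 without WT replicate 2 (adjusted p = 0.156 by limma).

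*Gbp2* had normalised read counts of 61.3 and 98.2 in WT and 41.4 and 52.1 in the KO-labelled libraries. The groups were separate, yet the log2 fold change of -0.73 ± 0.33 (SE) was not called (adjusted p = 0.382 by limma). *Gbp7* had 248 and 540 in WT against 264 and 387, a full overlap of the Rxra-KO values with the WT range. Its log2 fold change was -0.19, with a 95% interval from -0.66 to 0.28.

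The IRGM proteins regulate the effector IRG proteins and keep them from attaching to the cell's own membranes. *Irgm1* had normalised read counts of 137 and 285 in WT and 151 and 179 in the KO-labelled libraries, and *Igtp* (IRGM3) had 44.7 and 180 against 74.5 and 66.0. *Irgm2* had 20 and 74 WT reads against 29 and 27. For each of these genes WT replicate 2 was the highest library, and WT replicate 1 was the lowest for *Irgm1* and *Igtp*. Log2 fold changes were -0.26 for *Irgm1*, -0.35 for *Igtp* and -0.51 for *Irgm2*, and none was called. *Gbp5*, which acts in inflammasome assembly, had 3 and 7 WT reads against 2 and 7 in Rxra-KO, too few to show a difference at this depth.

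**Figure D1:**
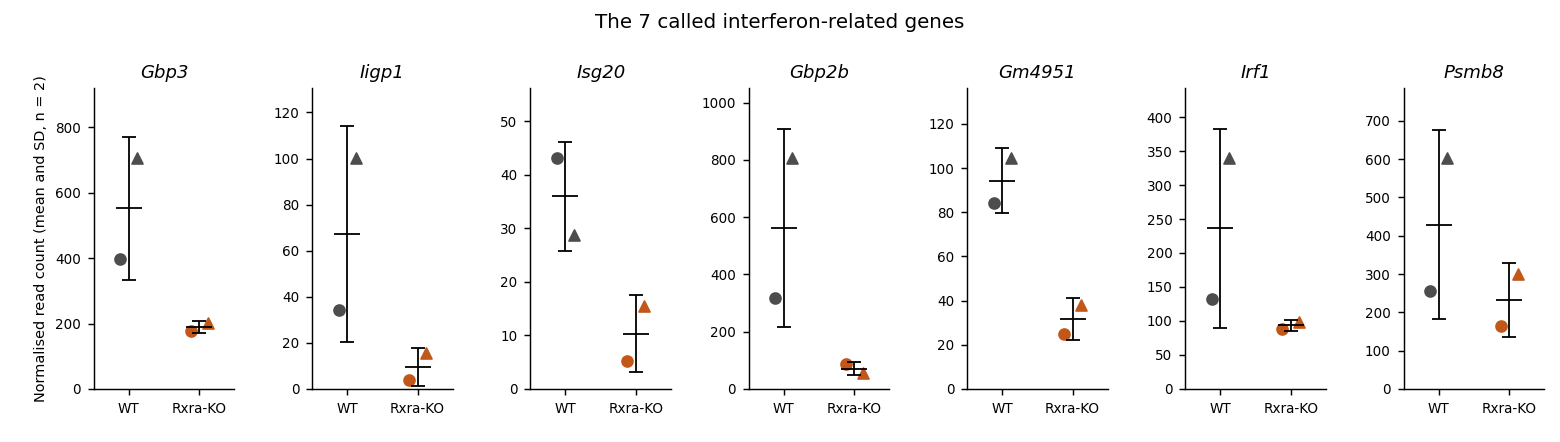
Normalised read counts (linear axes from 0, each gene on its own scale) of the 7 called genes of the interferon system in the WT and Rxra-KO libraries. Circles are replicate 1, triangles replicate 2, and the horizontal bars with whiskers give the mean and SD of 2 libraries. *Gbp3*, *Iigp1* and *Isg20* are members, and WT replicate 2 is the highest library for each gene shown except *Isg20*. Only *Psmb8* has overlapping groups.

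The wider pathway lists gave a further set of 9 GBP and IRG genes that are not members. Of these, 8 had log2 fold changes below 0, with a median of -0.47, and 2 were called lower. *Gbp2b*, also known as *Gbp1*, had 210 and 744 WT reads against 57 and 54 in the KO-labelled libraries, the clearest separation among these genes. Its log2 fold change was -2.87 ± 0.26 (SE, adjusted p = 5.28e-20 by limma), and without WT replicate 2 it was still -2.20 (adjusted p = 1.23e-07 by limma). *Gm4951*, an IRG family gene close in sequence to *Iigp1*, had 55 and 96 reads in WT against 16 and 38, also without overlap. It had a log2 fold change of -1.57 (adjusted p = 0.000649 by limma), and its adjusted p was 0.0806 without WT replicate 2 and 0.0888 without Rxra-KO replicate 1. *Gbp9* had 6 and 49 WT reads against 8 and 3 in Rxra-KO, and *Gbp8* had 0 and 21 against 0 and 5, so that for both nearly all WT reads lay in WT replicate 2.

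Reads can be shared among these paralogs, and how the counting split them is not known. By the GENCODE M21 transcripts, 15.9% of the 31-base stretches of *Igtp* also occur in another gene, mainly *Irgm2*, and 14.7% of those of *Gbp7* do. The share was 5.64% for *Gbp3*, 6.92% for *Iigp1* and 4.15% for *Gbp2b*, and 367 of the 2615 stretches of *Gm4951* were shared. For *Gbp7* most of the sharing was with *Gm43802*, at 10.8%. How far this moved any count was not tested.

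The type I style genes showed no common shift. Of 33, 19 had a log2 fold change above 0 and 14 below, with a median of 0.06, or 0.09 without the 2 genes that had at most 3 reads in every library. A single gene, *Isg20*, was called lower and 0 were called higher. The summed normalised read count was 1086 and 1415 in WT and 1204 and 1444 in the KO-labelled libraries, so the Rxra-KO libraries lay inside or next to the WT range. The groups were separate for 9 of the 33 genes, 6 of them higher and 3 lower in Rxra-KO. Over all genes 38.1% were separate, 18.8% higher and 19.3% lower, so these counts do not set the list apart. Leaving out WT replicate 1 gave a median of -0.03, and leaving out WT replicate 2 one of 0.21.

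*Isg20*, an exonuclease that degrades single-stranded RNA, had 28 and 26 WT reads against 3 and 15 in the KO-labelled libraries. After scaling, the normalised read counts were 43.2 and 28.7 against 5.27 and 15.4. WT replicate 1 was thus the higher WT library, whereas all 8 GTPases were higher in WT replicate 2. The log2 fold change was -1.84 ± 0.52 (SE, adjusted p = 0.0247 by limma). This call was not stable: the adjusted p was 0.356 without WT replicate 1, 0.0592 without WT replicate 2 and 0.638 without Rxra-KO replicate 1, and with DESeq2 on the recovered reads it was 0.427.

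*Irf7* and *Rsad2* had separate groups in opposite directions but were not called. *Irf7*, the transcription factor that amplifies type I interferon production, had 4 and 16 WT reads against 0 and 4 in the KO-labelled libraries. Its groups were separate only after scaling, at 6.81 and 17.9 against 0.753 and 4.47. The log2 fold change of *Irf7* was -1.97 (unadjusted p = 0.0128 from limma, adjusted p = 0.258). *Rsad2*, encoding the antiviral enzyme viperin, had 8 and 12 reads in WT against 22 and 27, and its log2 fold change was 1.14 (unadjusted p = 0.0207 from limma, adjusted p = 0.324). *Cmpk2*, a nucleotide kinase that lies next to *Rsad2*, had 14 and 7 WT reads against 15 and 28 in Rxra-KO (log2 fold change 0.88, adjusted p = 0.601 by limma). Both genes were higher in each Rxra-KO library than in either WT library.

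The 3 type I style genes with a mean of at least 100 reads allowed narrower intervals. *Parp14*, an ADP-ribosyltransferase, had normalised read counts of 155 and 237 in WT and 198 and 271 in the KO-labelled libraries, and its log2 fold change of 0.27 had a 95% interval from -0.22 to 0.76. *Trim30a*, a regulator of innate signalling, had 117 and 125 against 150 and 133, so that both Rxra-KO libraries were higher, and the interval of its log2 fold change of 0.22 ran from -0.31 to 0.74. *Rtp4*, a receptor transport protein, had 96.1 and 200 against 105 and 146, with the Rxra-KO values between the WT values. Its log2 fold change was -0.16, from -0.70 to 0.38.

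The antiviral effectors that define a strong type I response were at low counts in all libraries. *Ifit1* had 1 read in each of the 4 libraries, *Ifit3* had 3 and 2 in WT and 3 and 2 in the KO-labelled libraries, and *Ifit2* had 5 and 0 against 2 and 1. These IFIT genes bind viral RNA, and no fold is given for them because at least 1 group had no library above 3 reads. Of the 31-base stretches of *Ifit3*, 61.8% are shared with *Ifit3b*. For *Ifit1*, 10.8% are shared with other genes, mainly *Ifit1bl2*, so reads may have been split among these paralogs. *Ifit1bl2*, which is not a member, had 49 and 95 WT reads against 74 and 99 in the KO-labelled libraries. *Isg15*, a ubiquitin-like modifier, had 7 and 13 reads against 3 and 12, and its deconjugating enzyme *Usp18* had 8 and 24 against 7 and 24. The counts of *Ifit1*, *Ifit2*, *Ifit3* and *Isg15* were too few to show a difference at this depth. *Usp18* had nearly the same pair of values in both groups, with a log2 fold change of -0.15 and a 95% interval from -1.18 to 0.89.

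The oligoadenylate synthetases, which activate RNase L on sensing double-stranded RNA, were somewhat better covered. *Oas1a* had normalised read counts of 50.7 and 60.2 in WT and 65.5 and 77.0 in the KO-labelled libraries, and *Oas3* had 49.2 and 48.3 against 67.0 and 54.1. In both the Rxra-KO libraries were above the WT libraries, and neither was called (adjusted p = 0.824 and 0.892 by limma). *Oas2* had 9.84 and 24.4 against 20.3 and 31.3, *Oasl2* had 29.5 and 33.1 against 32.4 and 34.3, and *Oasl1* had 17.4 and 10.3 against 3.76 and 12.4, all with overlapping groups. Of the 31-base stretches of *Oas1a*, 68.8% are shared with other genes, chiefly *Oas1g*, so its value may hold reads of that paralog. *Mx1* had 26 and 17 WT reads against 24 and 31 in Rxra-KO, and *Mx2* had 5 and 8 in both groups. Both are dynamin-like antiviral GTPases, listed by RefSeq as transcribed pseudogenes in the C57BL/6J reference.

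The cytosolic RNA sensors were close between the groups. *Ifih1* (MDA5) had normalised read counts of 44.7 and 81.9 in WT and 50.4 and 77.0 in the KO-labelled libraries, and *Ddx58* (RIG-I) had 34.1 and 41.8 against 36.9 and 42.2, with log2 fold changes of 0.04 and 0.06. *Dhx58* (LGP2) had 18 and 27 WT reads against 10 and 40, with a log2 fold change of -0.18. *Zbp1*, a nucleic acid sensor that triggers cell death, had 20 and 32 WT reads against 15 and 29, separate groups with a log2 fold change of -0.33 that was not called.

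*Stat2* and *Irf9*, which take part in the ISRE-binding complex, did not pass the test. *Stat2* had 20 and 43 WT reads against 22 and 47 in the KO-labelled libraries, nearly the same pair of values. *Irf9* had normalised read counts of 41.6 and 24.4 in WT against 47.4 and 46.2, both Rxra-KO libraries being higher, with a log2 fold change of 0.54 and a 95% interval from -0.21 to 1.29. *Parp9* and *Dtx3l*, which encode partners in one complex, had log2 fold changes of 0.60 and -0.02, neither called. The remaining 6 type I style genes, *Bst2*, *Ifitm3*, *Ifi44*, *Ifi35*, *Xaf1* and *Ifi27l2a*, had log2 fold changes between -0.33 for *Xaf1* and 0.87 for *Ifi44*, and their groups overlapped.

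**Figure D2:**
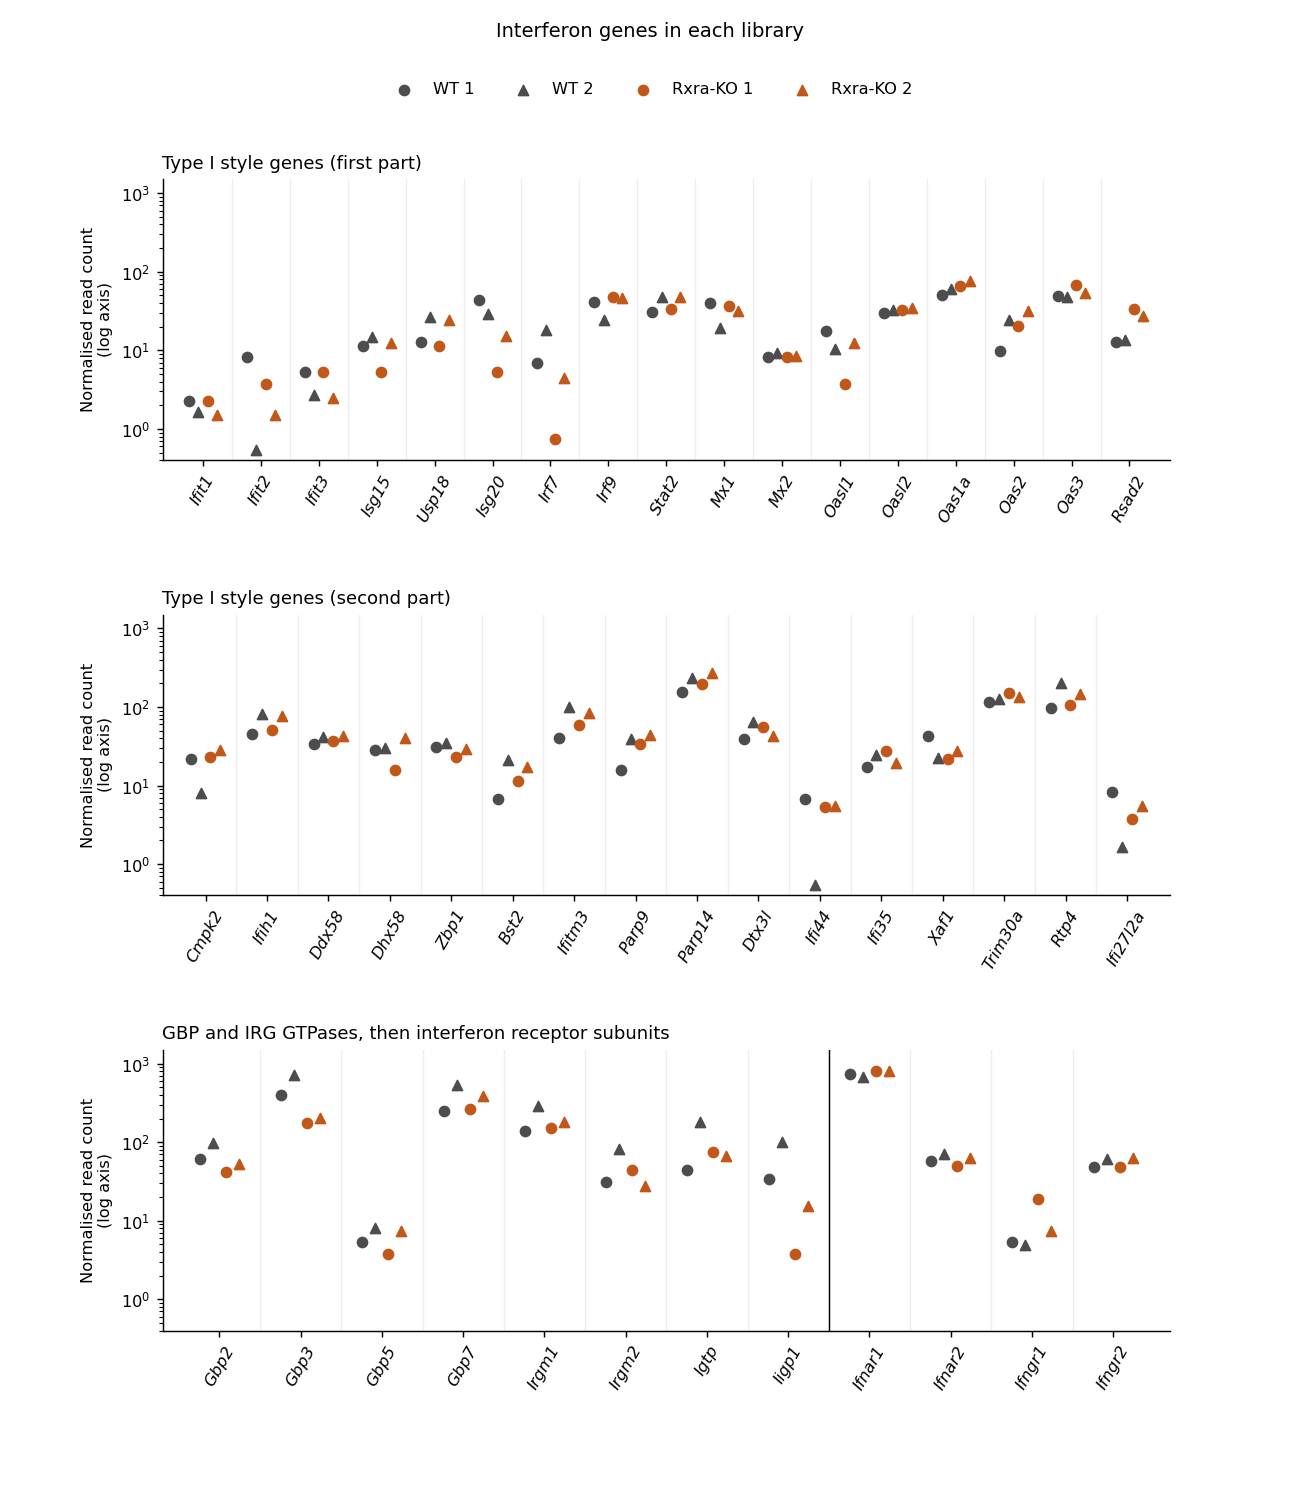
Normalised read count (log axis) of each of the 45 members in each library, with WT in grey and Rxra-KO in orange, circles for replicate 1 and triangles for replicate 2. In the lower panel the WT replicate 2 triangle is above the WT replicate 1 circle for 8 of 8 GTPases, while in the upper panels the 4 libraries are mixed for most type I style genes.

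None of the 4 receptor subunits was called, and their median log2 fold change was 0.12. *Ifnar1*, with the largest number of reads of any member, had normalised read counts of 731 and 677 in WT and 803 and 813 in the KO-labelled libraries. The groups did not overlap, and the log2 fold change of 0.20 had a 95% interval from -0.23 to 0.63. *Ifnar2* had 56.8 and 71.1 in WT against 50.4 and 63.1, and *Ifngr2* had 47.7 and 61.3 against 48.9 and 63.1, with overlap in both. *Ifngr1*, the ligand-binding subunit of the interferon-γ receptor, had only 3 and 4 WT reads against 12 and 7. The groups were separate, and its log2 fold change of 1.09 had a 95% interval from -0.32 to 2.49 (adjusted p = 0.681 by limma).

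**Figure D3:**
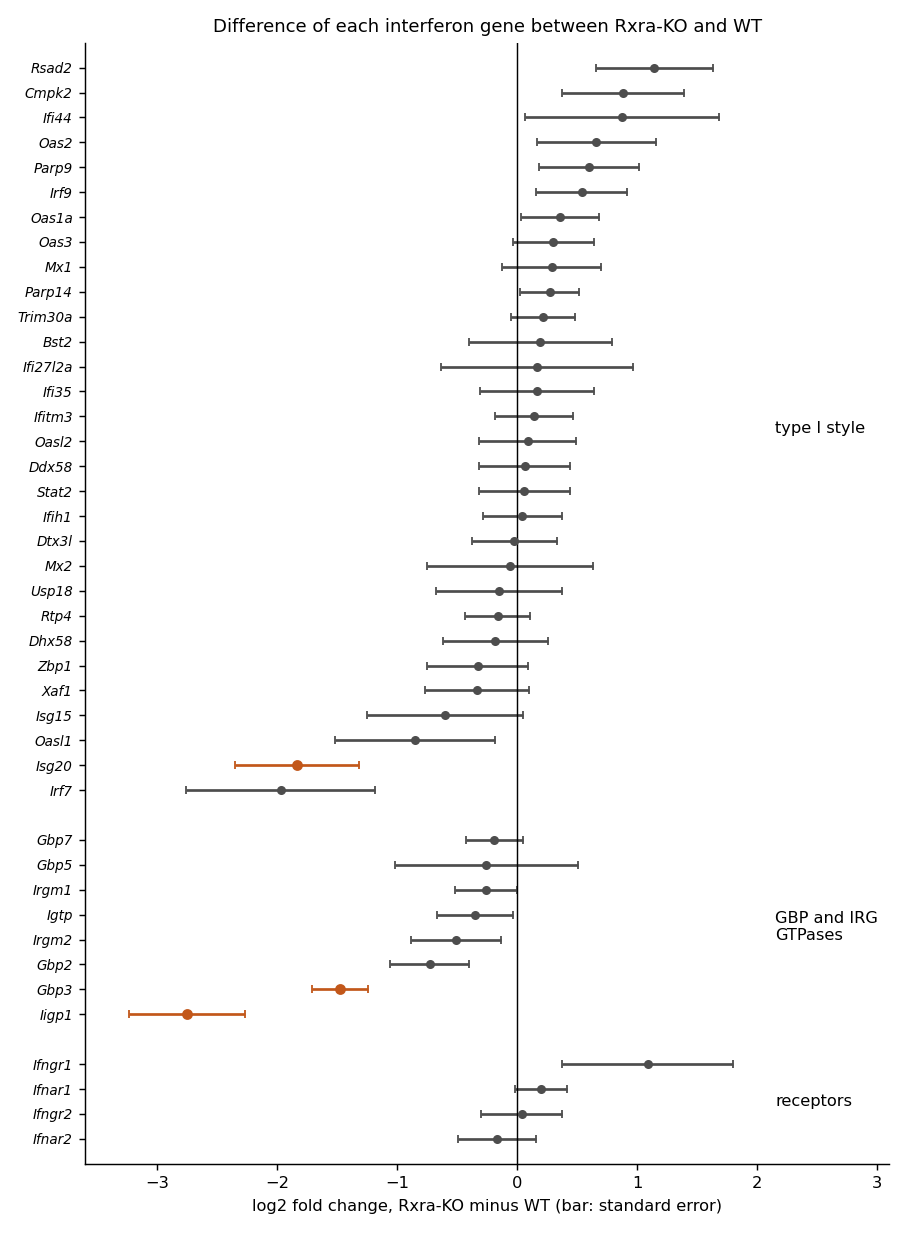
Log2 fold change of Rxra-KO over WT for 42 of the 45 members, with the standard error from limma as bars, by list and in order of size. Orange marks the called genes *Isg20*, *Gbp3* and *Iigp1*. *Ifit1*, *Ifit2* and *Ifit3*, which had no library above 3 reads in at least 1 group, are left out. The type I style genes lie on both sides of 0 and the 8 GTPases below it.

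The rest of the pathway was read from 106 further genes with a value. Of these, 4 (3.77%) were called, all lower, against 2.29% of all genes called either way and 0.969% called lower. An unadjusted p under 0.05 from limma was found for 21 (19.8%), against 10.1% of all genes. Those 21 went both ways, with 7 higher and 6 lower among the 56 other interferon-stimulated genes. Over the 106 genes the median log2 fold change was -0.04, with 43 above 0 and 63 below. Beside *Gbp2b* and *Gm4951*, the called genes were *Irf1* and *Psmb8*. *Irf1*, the transcription factor downstream of interferon-γ, had normalised read counts of 132 and 340 in WT and 88.1 and 98.8 in the KO-labelled libraries. Its log2 fold change was -1.18 ± 0.27 (SE, adjusted p = 0.00188 by limma), and without WT replicate 2 it was -0.50 (adjusted p = 0.79 by limma). *Psmb8*, an immunoproteasome subunit, had 255 and 604 against 165 and 300, an overlap between the groups, and was called at a log2 fold change of -0.82 (adjusted p = 0.0445 by limma). Without WT replicate 2 this was -0.20, and without Rxra-KO replicate 1 it was -0.38.

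The signalling relay upstream held 0 calls among 11 JAK-STAT genes, 2 of which had an unadjusted p under 0.05 from limma. *Jak1*, the kinase shared by both receptors, had normalised read counts of 332 and 272 in WT against 460 and 473, a clear separation, and its log2 fold change of 0.63 had an adjusted p of 0.164 from limma. *Jak2* and *Tyk2* both had a log2 fold change of -0.01. Of the interferon regulatory factors with at least 100 reads, *Irf3* had a log2 fold change of 0.06 and *Irf8* of -0.04. *Irf1*, given above, and *Irf5* were also at this depth. *Irf5* had normalised read counts of 248 and 253 in WT against 245 and 301, and was not called. In the list of 9 genes that held them, whatever their reads, *Irf1* was the only call. That list also held *Irf2bp1*, *Irf2bp2* and *Irf2bpl*, named as IRF2-binding proteins. *Irf4*, which the study reports as upregulated in RXR-deficient LPMs, was not in it. The 3 ligand genes with a value, *Ifne*, *Ifnk* and *Ifnl3*, had at most 5 reads in any library. *Ifnb1*, *Ifng* and *Socs1* had no value among the 18364 genes.

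WT replicate 2 stood apart in the GTPases. On the log2 scale all 8 were higher in WT replicate 2 than in WT replicate 1, by a median of 1.09, while the median over all genes was 0.00 and that of the type I style genes 0.16. The 9 other GBP and IRG genes were all higher in that library too, by a median of 1.34. Between the 2 Rxra-KO libraries the medians were 0.28 for the 8 GTPases and -0.04 for the other 9 genes. Genes of MHC class II, a list added after the values were seen and a protein the sort selected against, also differed between the WT libraries. All 6 were higher in WT replicate 2 than in WT replicate 1, by a median of 2.67. *H2-Ab1* had 241 and 2289 WT reads against 106 and 614 in the KO-labelled libraries. All 6 were higher in Rxra-KO replicate 2 than in Rxra-KO replicate 1 too, by a median of 0.92, against 6 of the 8 GTPases and 4 of the other 9 genes. The part of this in the GTPase result was not tested.

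When WT replicate 2 was left out, 0 of the 45 members were called with limma, although 6 still had an unadjusted p under 0.05, and the GTPase median went from -0.43 to 0.086. *Gbp7*, *Irgm1*, *Irgm2* and *Igtp* then had log2 fold changes of 0.37, 0.26, 0.16 and 0.64, and *Gbp5* one of 0.01, so 5 of the 8 turned above 0, whereas *Gbp2*, at -0.39, *Gbp3* and *Iigp1* stayed below it. When WT replicate 1 was left out, the GTPase median was -1.13 and *Igtp* was called at -1.34 (adjusted p = 0.0129 by limma). Without Rxra-KO replicate 1, *Gbp5* was 0.16 and *Gbp7* 0.08. The direction common to all 8 GTPases was thus not kept without WT replicate 2 or without Rxra-KO replicate 1.

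**Figure D4:**
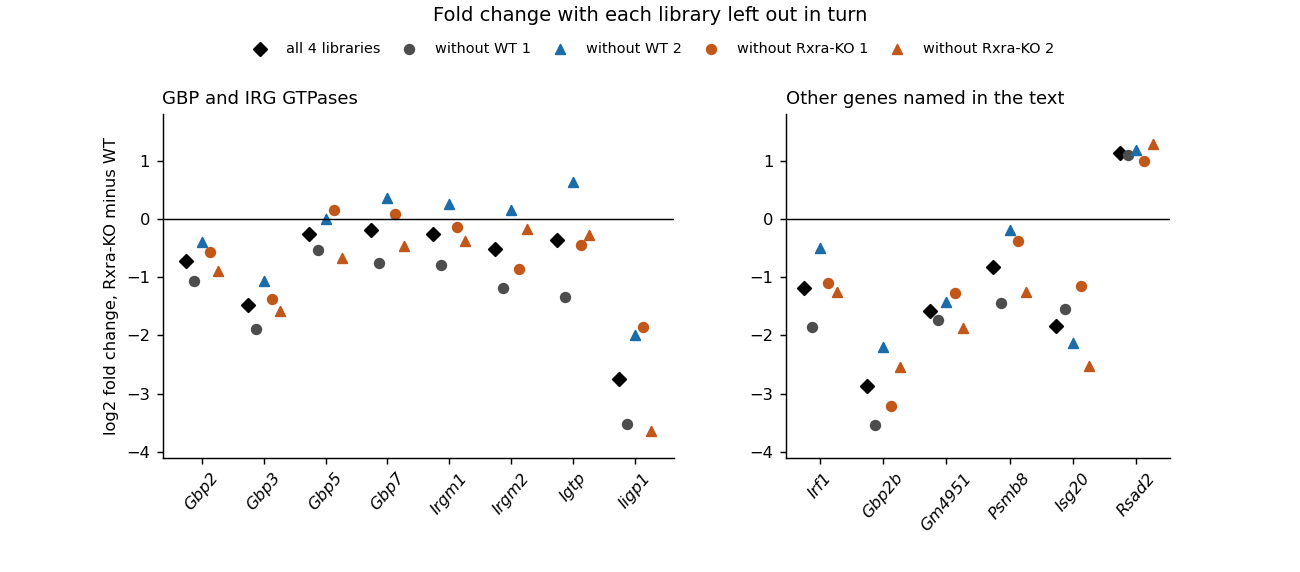
Log2 fold change of Rxra-KO over WT for the 8 GTPases (left) and 6 other genes named in the text (right), with all 4 libraries (black diamonds) and with each library left out in turn. Without WT replicate 2 (blue triangles) 5 of the 8 GTPases are above 0, while *Gbp3*, *Iigp1*, *Gbp2b*, *Gm4951* and *Isg20* stay below -1.

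The calls rest on a mean-variance trend that borrows the spread of other genes at the same level. With a single prior spread for all genes, limma gave 0 calls over the whole table and 5 members at an unadjusted p under 0.05. edgeR on the recovered reads called the same 3 members, and DESeq2 called *Gbp3* and *Iigp1*.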

How the data were processed

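RNA of sorted LPMs was sequenced by the authors with the SMART-Seq v4 low-input kit, which has no molecular identifiers, on a NextSeq-500. By their methods and notes, reads were quantified with Kallisto 0.43.0, summarised with tximport, filtered at 5 TPM and 1 CPM, and scaled by TMM in limma. They name the human build GRCh38, while the table holds mouse symbols. The deposited signal is a normalised read count, 1 column per library. Each value equals (reads + 0.5) divided by a scaled library size, and 100% of values gave whole reads (tolerance 0.01), so reads were recovered.

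Log2(value + 1) was fitted with limma 3.58.1 (R 4.3.3, mean-variance trend, 4 libraries, no covariate), in two-sided tests adjusted over 18364 genes by Benjamini and Hochberg. The pseudocount understates the change of low genes. A group with at most 3 reads in each library was at the floor. Intervals are 95% intervals of the fit, and floors cover counting error only. Alternatives used edgeR 4.0.16 and DESeq2 1.42.0, other pseudocounts, scalings and filters, and left out each library.

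Members and lists were chosen with earlier results of these data known. All members were named, with full values for those called, with at least 100 mean reads or with an unadjusted p under 0.05. Called pathway genes and a fixed set of signalling genes were added. One of these is not reported here. Samples were grouped by their labels. Promoters came from RefSeq GRCm38.p6.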

Additional observations from a re-analysis of the deposited data

How the results depend on the processing

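Depth and the number of libraries were the main limits. With 2 libraries a group, each fit that left one out assumed that the lone library varied like the other group, and 11 of 45 members had under 10 reads on average. The number of called genes over the whole table (421) was 241 with DESeq2 on the recovered reads, 0 without the mean-variance trend (1579 at an unadjusted p under 0.05 with limma) and 236 to 377 with 1 library left out. The 3 called members became 0 without the trend (5 at an unadjusted p under 0.05) and 0 to 3 with 1 library left out, and *Isg20* lost its call with DESeq2 and with voom. The 4 called pathway genes became 0 without the trend (6 at an unadjusted p under 0.05), 6 with edgeR and with voom, and 2 to 6 with 1 library left out. The median log2 fold change of the GTPases ran from -1.13 to 0.086 with 1 library left out. In an alternative chosen after seeing the data, genes with a value of at least 10 in 2 libraries were fitted without the trend, and 26 genes, 0 members and 0 pathway genes were called, with 4 members and 13 pathway genes at an unadjusted p under 0.05 by limma. The cause of these shifts was not tested. Scalings moved the median of all genes by under 0.03.

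The 2 groups share replicate numbers, but deviations of same-numbered libraries had a correlation of 0.0629 over 10049 genes, so the numbers were not taken to pair the libraries. With a replicate block, 540 genes, 3 members and 7 pathway genes were called, *Jak1* among them (adjusted p = 0.0389 by limma).

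The 11 called genes with a fitted fold in the text (the members *Gbp3*, *Iigp1* and *Isg20*, with *Gbp2b*, *Gm4951*, *Irf1*, *Psmb8*, *Lyz2*, *Ccr2*, *F13a1* and *Cd209a*) kept their direction under every alternative. Of 45 others, 27 had another direction under at least 1. Log2 fold changes of *Jak2* were 0.011, 0.0072 and 0.0070 with edgeR, DESeq2 and voom, those of *Tyk2* were 0.023, 0.022 and 0.011, that of *Dhx58* was 0.0079 with edgeR and that of *Ifi27l2a* was -0.060 with DESeq2. With 1 library left out they ran from -0.67 to 0.37 for *Usp18*, -0.23 to 0.36 for *Stat2*, -0.23 to 0.81 for *Mx1*, -0.13 to 0.0052 for *Mx2*, -0.39 to 0.47 for *Ifih1*, -0.080 to 0.21 for *Ddx58*, -0.83 to 0.46 for *Dhx58*, -0.56 to 0.94 for *Bst2*, -0.51 to 0.79 for *Ifitm3*, -0.032 to 1.23 for *Parp9*, -0.034 to 0.57 for *Parp14*, -0.37 to 0.33 for *Dtx3l*, -0.30 to 2.05 for *Ifi44*, -0.087 to 0.42 for *Ifi35* and -0.80 to 0.13 for *Xaf1*. The ranges were -0.69 to 0.36 for *Rtp4*, -0.75 to 1.08 for *Ifi27l2a*, -0.67 to 0.16 for *Gbp5*, -0.75 to 0.37 for *Gbp7*, -0.79 to 0.26 for *Irgm1*, -1.19 to 0.16 for *Irgm2*, -1.34 to 0.64 for *Igtp*, -0.14 to 0.22 for *Ifngr2*, -0.22 to 0.21 for *Jak2*, -0.32 to 0.31 for *Tyk2*, -0.041 to 0.17 for *Irf3* and -0.31 to 0.22 for *Irf8*.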
